A study of Homo sapiens with 24 samples.

Results

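The libraries described here are ribosome footprints of K562 cells carrying the guide sgDDX3, taken at day 14 and at day 3 of a knockdown of DDX3X. They were chosen by guide, assay and day from the labels, and they are 4 of the 24 libraries of the series, 2 at each day. The comparison asks which footprints had come back, or moved further, between the early and the late day. K562 is an established human line of chronic myelogenous leukaemia. It carried a doxycycline-inducible CRISPR interference system, and the labels list 50 ng/ml doxycycline for all samples, day 0 included, without saying whether the day 0 cells had received it. The reference libraries were 2 sgDDX3 footprint libraries of day 0, 6 footprint libraries of day 0, day 3 and day 14 from cells with the control guide sgGal4, and 4 cytosolic RNA libraries of sgDDX3 cells at day 3 and day 14. All cells were of the same line, carried the same system and were grown in the same medium. Whether the 2 replicates of a group were grown apart is not stated in the labels. The p-values therefore cover the spread between these samples alone, and that spread may be technical.

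DDX3X is an X-linked gene for a DEAD-box RNA helicase that takes part in translation initiation, above all on mRNAs with structured leaders. In CRISPR interference, a guide RNA brings a catalytically dead Cas9 with a repressor to a promoter, so the gene is silenced without being cut. In ribosome profiling, RNase digests the mRNA that ribosomes do not cover, and the counts of the protected fragments of a gene follow both how much of its mRNA is present and how densely ribosomes occupy it. Fragments held by other complexes can also enter such libraries, so counts in genes for small RNAs need not be ribosomes.

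Footprints on DDX3X itself (chrX:41333308-41364472, GRCh38) came back between day 3 and day 14, but not to the level of day 0. Levels are in CPM, counts per 1e+06 counts of a library after scaling between libraries. At day 3 the replicates of the sgDDX3 cells held 29.2 and 38.8 CPM, and at day 14 they held 109 and 101 CPM. Both day 14 libraries lay far above both day 3 libraries and below both day 0 libraries, which held 134 and 148 CPM. The means were 141 ± 10.0 CPM at day 0, 34.0 ± 6.77 CPM at day 3 and 105 ± 5.77 CPM at day 14 (SD, n = 2 each), so the day 3 level was 24.1% and the day 14 level 74.3% of day 0. The log2 change from day 3 to day 14 was 1.62 ± 0.12 (SE), a 3.07-fold rise (adjusted p = 7.25e-05, edgeR). The rise passed the test at 0.05 in every alternative computed, and lay between 1.43 and 1.84 when any of the 4 libraries was left out. Relative to day 0, the log2 change was -2.05 at day 3 (adjusted p = 3.03e-06, edgeR) and -0.43 at day 14 (adjusted p = 0.0309, edgeR).

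With the control guide, DDX3X footprints stood at 140 and 142 CPM at day 3 and at 154 and 167 CPM at day 14, a log2 change of 0.19 that did not pass (adjusted p = 0.663, edgeR). The change in the sgDDX3 cells exceeded that in the control cells by 1.43 ± 0.16 on the log2 scale (SE; adjusted p = 0.00579, edgeR). This difference passed when any of the 8 libraries was left out, with values from 1.25 to 1.66. DDX3X mRNA in the cytosol moved with the footprints. Its level in the sgDDX3 cells was 38.9 and 33.7 CPM at day 3 and 134 and 101 CPM at day 14, a log2 change of 1.68 (adjusted p = 8.58e-09, edgeR). The footprint change relative to the RNA change was -0.07 (adjusted p = 0.948, edgeR). In a bulk library, a level between those of day 3 and day 0 may be that of cells that all regained part of their DDX3X or of a mix of silenced and unsilenced cells, and fewer silenced cells and less silencing per cell cannot be told apart. None of 7 genes that neighbour DDX3X passed in either direction, USP9X next to it having a log2 change of -0.00.

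**Figure D1:**
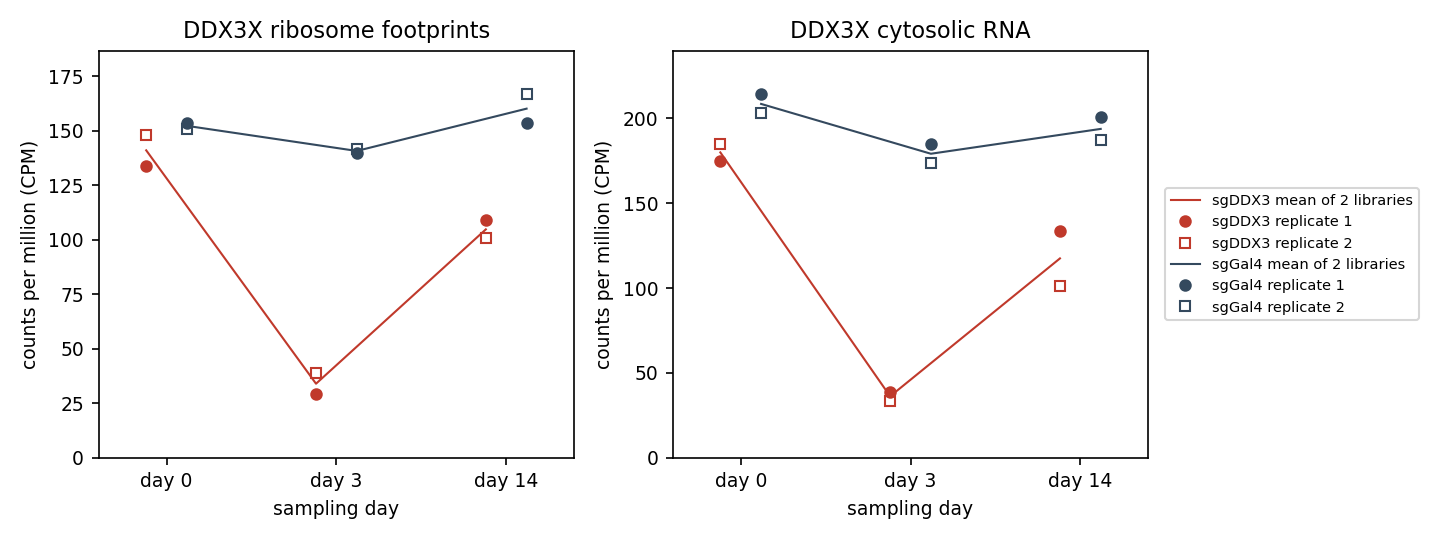
DDX3X level in CPM (y axis) by day (x axis) in footprint and cytosolic RNA libraries, 1 point per library, with sgDDX3 and sgGal4 cells in separate colours and lines through the means. The sgDDX3 footprint points drop to 29.2 and 38.8 CPM at day 3 and return to 109 and 101 CPM at day 14, under both day 0 points.

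The 4 libraries held 6223963 and 7419868 counts at day 3 and 10584037 and 8582903 at day 14, so a count of 0 allowed 0.283 to 0.482 CPM (3 counts, counting error only). Protein-coding genes took 63.6% to 67.5% of their counts and genes of the small nuclear RNAs 11.3% to 14.1%. By the SD of their log2 differences, the day 3 replicates stood further apart than those of any other footprint group, at 0.309 against 0.187 to 0.270. By chi-square per degree of freedom against counting error, sgGal4 day 14 stood furthest apart (11.6), before day 3 (10.4) and day 14 (10.1) of sgDDX3. Erythroid genes, which mark K562 cells, summed to 4285 to 4471 CPM in the 4 libraries. Of 14 lymphoid markers, 9 did not pass the filter on low counts, and all 14 summed to 43.4 to 52.7 CPM. The 16 myeloid markers summed to 668 CPM in replicate 1 of day 3 and to 404 to 434 CPM in the other 3 libraries, and none of the 8 tested passed. The part that the marker levels or the spread at day 3 played in the results was not tested.

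Of 19780 genes tested, 252 rose (1.27%) and 108 fell (0.546%) from day 3 to day 14 in the sgDDX3 footprints, 1.82% in either direction. The median log2 change was 0.84 among the genes that rose and -1.05 among those that fell. By DESeq2, 286 rose and 109 fell. The count rested on single libraries: it was 96 genes without replicate 1 of day 3, 111 without replicate 1 of day 14, 223 without replicate 2 of day 14, and 807 without replicate 2 of day 3. Of the 252 genes that rose, 66 passed without replicate 1 of day 3, 192 without replicate 2 of day 3, 75 without replicate 1 of day 14 and 125 without replicate 2 of day 14. In control cells over the same days, 54 genes rose (0.273%) and 58 fell (0.293%), 0.566% in either direction. Of the 252 genes that rose in sgDDX3 cells, 205 had a positive change in control cells (81.3%, against 58.6% of all genes tested with the same sign in both), with a median log2 change of 0.34 there, and 19 of them rose by the test. Of the 108 that fell, 91 had a negative change in control cells and 12 fell by the test. Over 10501 genes with at least 10 CPM, the changes of the 2 kinds of cells had a Pearson r of 0.26 and a Spearman rho of 0.33, as a description across genes, which are not independent replicates.

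**Figure D2:**
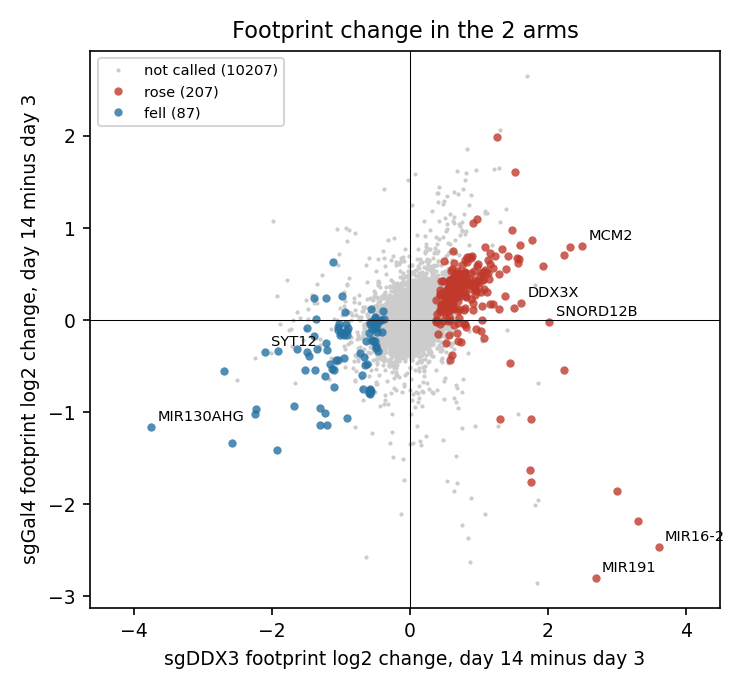
Log2 footprint change from day 3 to day 14 in sgDDX3 cells (x axis) and in sgGal4 cells (y axis), 1 point for each of 10501 genes with at least 10 CPM, with the 207 that rose and the 87 that fell in sgDDX3 cells in colour. DDX3X lies at 1.62 on the x axis and 0.19 on the y axis, and MIR16-2 at 3.61 and -2.47, among the few points to the lower right.

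Among protein-coding genes with a mean of at least 10 CPM and no overlap between the days, the steepest rises that passed were those of MCM2, EIF5B, SUPT6H and DDX3X. MCM2, a subunit of the helicase that opens DNA for replication, held 26.2 and 63.0 CPM at day 3 and 257 and 256 CPM at day 14. Both late libraries stood above both libraries of day 0 as well, which held 52.5 and 46.9 CPM, so the day 14 level was 515% of day 0. Its log2 change from day 3 was 2.50 ± 0.25 (SE; adjusted p = 2.97e-04, edgeR), against 0.81 in control cells (adjusted p = 0.216, edgeR). The difference between the 2 was 1.70 and did not pass (adjusted p = 0.0776, edgeR). EIF5B, the factor that joins the ribosomal subunits at the start codon, went from 21.8 and 37.7 CPM to 152 and 132 CPM, a log2 change of 2.24 ± 0.20 (SE; adjusted p = 1.19e-04, edgeR). SUPT6H, a histone chaperone of transcription elongation, went from 28.5 and 39.2 CPM to 131 and 129 CPM, a log2 change of 1.93 ± 0.16 (SE; adjusted p = 1.06e-04, edgeR). The calls of these 4 genes held when any 1 of the 4 libraries was left out. Unlike DDX3X, the other 3 were not low at day 3 relative to day 0: their log2 changes from day 0 to day 3 were -0.13 for MCM2, -0.04 for EIF5B and 0.26 for SUPT6H, none of which passed.

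Of the gene lists, that of DNA replication and S phase held the most genes that rose. Of 43 tested, 15 rose and 0 fell, where 1.27% of all genes rose and 0.546% fell. Of the 43 changes, 38 lay above 0, and the median log2 change was 0.33, against -0.01 over all genes tested. From day 0 to day 3, 28 of the 43 had fallen and 0 had risen (median -0.49), in a comparison where 3.82% of all genes fell and 3.73% rose, 7.55% in either direction. From day 0 to day 14, 16 fell and 3 rose (median -0.20), where 3.09% of all genes fell and 4.69% rose, 7.78% in either direction. The 3 comparisons share libraries. Summed over the list, footprints stood at 5179 and 5115 CPM at day 0, at 3305 and 3841 CPM at day 3 and at 4866 and 4631 CPM at day 14. The day 14 sums lay above both day 3 sums and below both day 0 sums, and went from 69.4% to 92.3% of the day 0 mean. In control cells the same sums were 4231 and 4369 CPM at day 3 and 4503 and 4445 CPM at day 14, 84.5% and 87.9% of their own day 0, and none of the 43 genes passed there. None passed for the difference between the 2 kinds of cells either.

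The members that rose span the steps of replication, and apart from MCM2, RRM1, RRM2 and UHRF1 they are named after their values were seen. For the loading of the replicative helicase, ORC1, a subunit of the origin recognition complex, rose by 0.94, the licensing factor CDT1 by 0.55, and MCM10 by 0.79, all on the log2 scale. Of the helicase itself, MCM4 (0.61), MCM5 (0.51) and MCM7 (0.46) rose beside MCM2. The DNA polymerase subunits POLA1 (1.07) and POLE (0.50) rose. For nucleotide supply, RRM1, the large subunit of ribonucleotide reductase, went from 47.0 and 63.2 CPM to 110 and 97.4 CPM, above its day 0 level of 74.4 and 74.1 CPM. RRM2, its small subunit, went from 57.6 and 61.5 CPM to 94.8 and 84.3 CPM and stayed under its day 0 level of 124 and 129 CPM. TYMS, which makes thymidylate, rose by 0.41. UHRF1, which maintains DNA methylation, rose by 0.95, the histone chaperone subunit CHAF1A by 0.57 and the transcription factor E2F1 by 0.92. PCNA, the sliding clamp, had a log2 change of 0.24 that did not pass (adjusted p = 0.194, edgeR). These calls rested on replicate 1 of each day: 2 genes of the list passed without replicate 1 of day 3, and 2 without replicate 1 of day 14, MCM2 and RRM1 both times. Without replicate 2 of day 3, 18 passed, and without replicate 2 of day 14, 8.

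E2F factors, which drive S phase genes, bind a site whose core can be written TTTCCCGC, TTTCGCGC, TTTGCCGC or TTTGGCGC, and the promoters of the genes that rose were searched for these 8-base forms on both strands, in the 250 bases before the gene start given by RefSeq (GRCh38.p14). No other motif was searched. Of 13 risen replication genes with a promoter in the table, 7 held a match (53.8%), as did 9 of the 25 other replication genes (36%), 473 of 10658 genes tested (4.44%) and 761 of all 27305 promoters (2.79%). Replication-dependent histone genes, none of which passed between the days, held a match in 10 of 51 promoters (19.6%). A match is a description of the letters and not a bound site. Windows from 4 of the risen genes are shown so that the matched letters, in capitals, can be seen in their surroundings. All 4 matches shown lie on the reverse strand. Others did not: MCM7 also held TTTCGCGC on the forward strand, outside its window, and E2F1, not shown, held a forward and a reverse match. CDT1, MCM7 and UHRF1 held GCGGGAAA, the reverse complement of TTTCCCGC, and POLA1 held GCGCCAAA, that of TTTGGCGC.
CDT1, chr16:88803743-88803772, plus strand: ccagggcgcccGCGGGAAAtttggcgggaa
MCM7, chr7:100101566-100101595, minus strand: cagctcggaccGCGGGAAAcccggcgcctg
POLA1, chrX:24693770-24693799, plus strand: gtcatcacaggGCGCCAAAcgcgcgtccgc
UHRF1, chr19:4909476-4909500, plus strand: gccgagttttcGCGGGAAAaaaatc

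Of the replication-dependent histone genes, whose mRNAs are made in S phase, none of 50 tested passed between day 3 and day 14 (median log2 change 0.06). The share of all genes that passed was 1.82%, so 0 of 50 lies near it. From day 0 to day 3, 32 of the 50 had fallen, where 3.82% of all genes fell. At day 14, 31 were lower than at day 0, where 3.09% of all genes were lower. Their summed footprints were 45706 and 44620 CPM at day 0, 32395 and 33020 CPM at day 3 and 32800 and 34211 CPM at day 14. The sums of day 3 and day 14 overlapped, at 72.4% and 74.2% of the day 0 mean, against 84.7% and 85.2% in control cells. H1-2, a linker histone, came closest to passing, with 0.36 (adjusted p = 0.0611, edgeR), and is named after its value was seen. Histone copies can share reads, which makes their single values uncertain. The difference between the replication and the histone list was not tested.

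**Figure D3:**
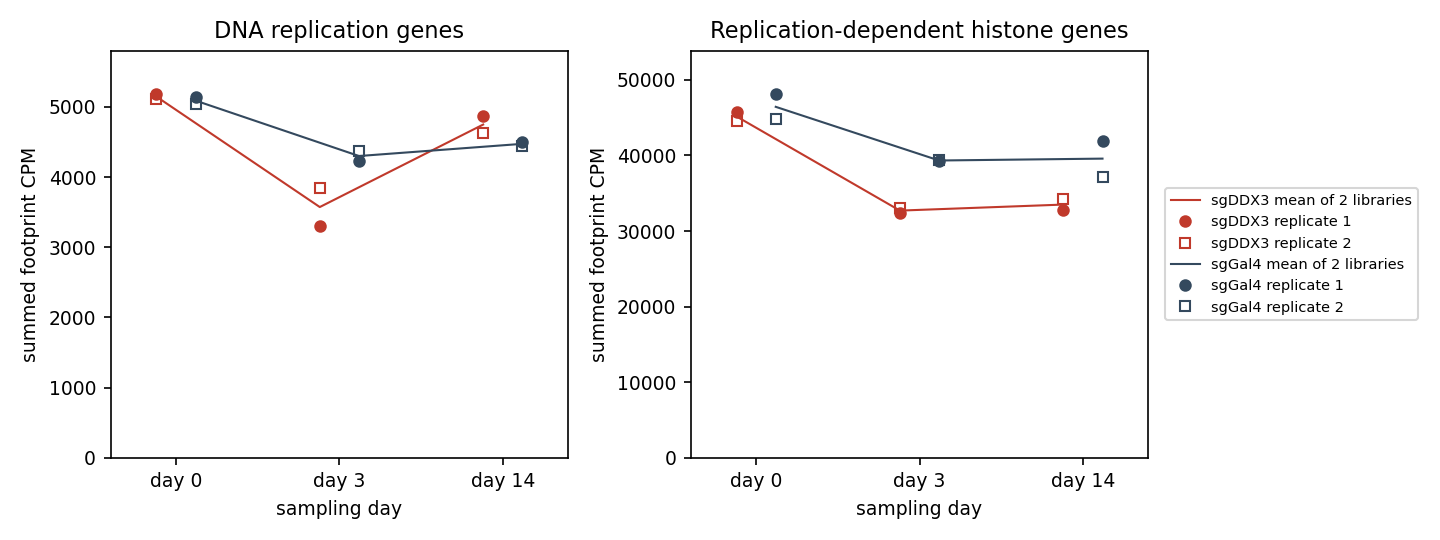
Summed footprint CPM (y axes) of the replication genes and of the replication-dependent histone genes at each day (x axes), 1 point per library, for sgDDX3 and sgGal4 cells. The sgDDX3 replication sums rise from 3305 and 3841 CPM at day 3 to 4866 and 4631 CPM at day 14, while the histone sums overlap between these days.

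Of 33 mitosis genes, 5 rose and 0 fell (median log2 change 0.23), where 1.27% of all genes rose. In control cells 1 of the 33 rose (median 0.13), and none passed for the difference between the guides. Summed footprints of the list went from 88.3% of day 0 at day 3 to 110.6% at day 14 with sgDDX3. With sgGal4 they went from 99.1% to 110.2%. MKI67, the proliferation antigen that coats mitotic chromosomes, went from 39.4 and 61.1 CPM to 135 and 130 CPM, and TOP2A, the topoisomerase that untangles chromosomes, from 106 and 169 CPM to 297 and 320 CPM. The kinesin KIF2C rose by 0.94, the spindle factor TPX2 by 0.63 and INCENP, of the chromosomal passenger complex, by 0.58. TPX2 also rose in control cells, by 0.75 (adjusted p = 0.0236, edgeR). TPX2 and INCENP lost their calls without replicate 1 of day 3 (lowest value 0.40), without replicate 1 of day 14 and without replicate 2 of day 14.

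Of 41 RNA helicases tested besides DDX3X, 5 rose and 0 fell, where 1.27% of all genes rose and 0.546% fell. Of the 41 changes, 39 lay above 0, and the median log2 change was 0.28, against -0.01 over all genes tested. In control cells none of the 41 passed (median 0.17), and none passed for the difference between the guides. DHX9, a helicase that unwinds RNA and DNA duplexes, stood at 70.3 and 132 CPM at day 3 and at 328 and 274 CPM at day 14, a log2 change of 1.57 ± 0.21 (SE; adjusted p = 0.00287, edgeR). DHX9P1, its pseudogene, rose by 1.78, and the 2 can share reads, so both values are uncertain. DDX24, of the nucleolus, rose by 1.10, DDX21, which acts in ribosome synthesis, by 0.70, DHX30, of mitochondria, by 0.66 and MOV10, of RNA silencing, by 0.62. The calls of DHX9 and DDX24 held when any 1 of the 4 libraries was left out, while the other 3 were lost without replicate 1 of day 3 and without replicate 1 of day 14, and those of DDX21 and MOV10 also without replicate 2 of day 14. In the 2 libraries of day 3, replicate 1 was the lower for each of the 5 genes.

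Of 37 initiation factors tested, 4 rose and 0 fell, with a median log2 change of -0.04, where 1.27% of all genes rose. In control cells none of the 37 passed, and none passed for the difference between the guides. Beside EIF5B these were EIF4G1, the scaffold of the cap-binding complex, from 199 and 302 CPM to 474 and 416 CPM, EIF3C, by 0.57, and EIF4EBP2, which holds back the cap-binding protein. EIF4EBP2 went from 21.1 and 19.3 CPM at day 3 to 33.6 and 36.8 CPM at day 14, close to its 38.8 and 35.0 CPM at day 0, and its call held when any 1 of the 4 libraries was left out. EIF4G1 and EIF3C lost theirs without replicate 1 of either day, and EIF3C also without replicate 2 of day 14. Of 32 ribosome biogenesis genes 4 rose and 0 fell (median 0.12). None of the 32 passed in control cells (median 0.07) or for the difference between the guides. Nucleolin, NCL, rose from 270.2 and 522 CPM to 1149 and 981 CPM, and UTP20 (1.03), NOP2 (0.85) and NOLC1 (0.71), which act in making the ribosome, rose too. Without replicate 1 of either day NCL alone of the 4 passed.

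In a list of 7 mRNAs that earlier work linked to translation by DDX3X, all changes lay above 0 and 1 passed (median log2 change 0.16). The share of all genes that rose was 1.27%. ODC1, the first enzyme of polyamine synthesis, went from 65.6 and 56.5 CPM at day 3 to 106 and 92.6 CPM at day 14, a log2 change of 0.71 ± 0.11 (SE; adjusted p = 0.00585, edgeR). Both late values lay under its day 0 level of 156 and 144 CPM. The call was lost without replicate 1 of day 14 (0.61). The change exceeded that of control cells by 0.74, which did not pass (adjusted p = 0.0706, edgeR). DVL2, an adaptor of Wnt signalling, held 23.5 and 25.4 CPM at day 3 and 32.7 and 34.7 CPM at day 14, a change of 0.46 that did not pass (adjusted p = 0.0975, edgeR). CCNE1, the G1 cyclin (0.16), and RAC1, a small GTPase (0.09), did not pass either, and from day 0 to day 3 they had fallen by 0.66 and by 0.40 on the log2 scale.

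Ribosomal protein genes did not pass: 0 of 47 of the large subunit (median log2 change -0.10) and 0 of 32 of the small subunit (median -0.13), although 2 of these 32 changes lay above 0 and 30 below. The shares over all genes were 1.27% risen and 0.546% fallen, so counts of 0 lie near them. Of 22 elongation factors and other mRNAs with a 5′ terminal oligopyrimidine tract, 2 rose: the poly(A)-binding proteins PABPC1 (150 and 185 CPM to 254 and 235 CPM) and PABPC4 (0.50). Both calls were lost without replicate 1 of day 3 (0.39 and 0.38) and without replicate 1 of day 14, and that of PABPC4 also without replicate 2 of day 14. Of 33 genes of the integrated stress response, the programme of ATF4, none passed and 31 changes lay below 0 (median -0.26). ATF4 itself had a log2 change of -0.03 (adjusted p = 0.933, edgeR). Without replicate 2 of day 3, 4 of these genes fell, and without replicate 2 of day 14, 3 fell.

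Among interferon-stimulated genes, 3 of 17 rose and 0 fell. Over all genes tested, 1.27% rose and 0.546% fell. No gene of the lists in this paragraph passed in control cells or for the difference between the guides. IFI6 rose from 4.36 and 4.05 CPM to 11.95 and 10.8 CPM, and OAS3, which activates RNase L, from 2.35 and 0.676 CPM to 5.37 and 6.87 CPM. Without replicate 1 of day 14 none of the 3 passed, and without any other single library 1 passed. Of 25 heat shock genes 2 rose, the near-identical HSPA1A (0.72) and HSPA1B (0.69), whose reads can be shared. The call of HSPA1A was lost without replicate 1 of either day. Of 28 cholesterol genes 2 rose, among them the fatty acid synthase FASN (0.52), whose call was lost without replicate 1 of either day. Of 39 erythroid genes 3 rose, the ferritin light chain FTL (0.62), the spectrin SPTB (0.66) and ALAS2, the first enzyme of heme synthesis (0.39). ALAS2 and SPTB lost their calls when any 1 of the 4 libraries was left out, and FTL passed without replicate 1 of day 3 only. GP1BA, a platelet receptor, was the 1 of 6 megakaryocytic markers to rise (8.06 and 6.22 CPM to 17.3 and 18.4 CPM), whichever library was left out. Of 23 genes of the unfolded protein response CRELD2 rose (0.70), a call lost when any 1 of the 4 libraries was left out. MT-ND6, a subunit of respiratory complex I, was the 1 of 13 mitochondrially encoded mRNAs to pass, and fell by 0.55 on the log2 scale, a call lost without replicate 1 of day 3 or of day 14. None passed among 75 mitochondrial ribosomal proteins, 74 nuclear subunits of oxidative phosphorylation, 30 proteasome subunits, 27 genes of glycolysis and hypoxia, 23 stress granule proteins, 20 tRNA synthetases, 18 Wnt genes, 16 genes of BCR-ABL and STAT5 signalling, 14 hosts of small nucleolar RNAs and 13 genes of polyamine metabolism other than ODC1.

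TNF and 9 other genes of low counts that rose are named after their values were seen, since no list held them. TNF, the cytokine, went from 0.168 and 0.405 CPM, at or under 3 counts, to 3.43 and 2.96 CPM in sgDDX3 cells. In control cells TNF went from 0.168 and 0.385 CPM to 4.92 and 4.85 CPM. The other 9 were the chemokines CXCL8, CCL4, CCL4L2 and CCL3L3, the signalling proteins TNFAIP3, TRAF1 and IRAK2, the receptor TNFRSF9 and the GTPase GBP2. Of these 10 genes, 9 also rose in control cells, CCL4 being the exception (adjusted p = 0.0768, edgeR), and none passed for the difference between the 2. Of the 10, 3 passed without replicate 1 of day 3, 6 without replicate 2 of day 3, 4 without replicate 1 of day 14 and 5 without replicate 2 of day 14. Also in both kinds of cells, the immediate early factor JUN rose, from 22.0 and 20.8 CPM to 31.8 and 34.9 CPM with sgDDX3, a call that was lost when any 1 of the 4 libraries was left out.

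In 95 of the 108 genes that fell, replicate 1 of day 3 was above replicate 2, as it was in 64 of the 252 that rose and in 10046 of all 19780 genes. Of the 108, 14 passed without replicate 1 of day 3, 90 without replicate 2 of day 3, 8 without replicate 1 of day 14 and 39 without replicate 2 of day 14. SYT12, a synaptotagmin, fell from 67.1 and 66.9 CPM to 12.2 and 19.4 CPM, a log2 change of -2.10 ± 0.28 (SE; adjusted p = 0.00301, edgeR), and its call held without each of the 4 libraries. At day 0 it stood at 7.79 and 4.51 CPM, so day 3 held its highest level of the 3 days. INSYN1, of inhibitory synapses, fell from 15.1 and 14.9 CPM to 6.02 and 5.69 CPM, a call lost without either replicate of day 14. The other leading falls had unlike replicates at day 3. MIR130AHG, a long non-coding RNA, held 47.5 and 6.76 CPM at day 3 and 0.741 and 3.44 CPM at day 14, and its log2 change of -3.75 became -1.78 without replicate 1 of day 3. PROC, the gene of protein C, held 97.9 and 21.1 CPM and then 4.08 and 14.7 CPM. MS4A15, a membrane protein, held 331 and 98.6 CPM and then 34.5 and 55.9 CPM, and the antisense RNA NR2F2-AS1 held 894 and 352 CPM and then 151 and 283 CPM. The calls of these last 4 were lost without replicate 1 of day 3 and without replicate 1 of day 14, and that of MS4A15 also without replicate 2 of day 14. Of the 108 genes that fell, 45 (41.7%) had too few RNA counts to be tested in the cytosol, against 24.9% of all genes tested in footprints.

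Among genes of small RNAs, those of microRNAs had the largest share called between the days (13.3%). Small nucleolar RNA genes (8.85%) and small nuclear RNA genes (2.86%) came after them. MicroRNAs are short RNAs that guide Argonaute proteins to target mRNAs through their seed, bases 2 to 8. Counts in their genes in a footprint library need not come from ribosomes, and the lengths of the fragments counted here are not known. The mature sequences of the hairpins that rose, all but MIR320A, are shown so that their seeds, in capitals, can be compared, 1 arm for each hairpin, as RefSeq gives them (GRCh38.p14). MIR16-1 and MIR16-2, on different chromosomes, encode the same 5p sequence, so reads of that arm cannot be told apart, while their 3p arms differ. No 2 of the 7 sequences share a seed. The counts are per gene and do not say which arm was sequenced.
hsa-miR-16-5p: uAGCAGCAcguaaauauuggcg
hsa-miR-93-5p: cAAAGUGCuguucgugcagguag
hsa-miR-191-5p: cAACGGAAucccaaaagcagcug
hsa-miR-126-3p: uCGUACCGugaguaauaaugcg
hsa-miR-193b-3p: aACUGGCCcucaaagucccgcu
hsa-miR-26a-5p: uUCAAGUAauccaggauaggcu
hsa-miR-425-3p: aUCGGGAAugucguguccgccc

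Of 75 microRNA genes tested, 9 rose and 1 fell (13.3% called, against 1.82% of all genes), with a median log2 change of 1.07. In control cells 0 rose and 4 fell (5.33%, against 0.566% of all genes), with a median of -0.99. MIR16-2 stood at 5.71 and 5.00 CPM at day 3 and at 104 and 25.2 CPM at day 14 in sgDDX3 cells. In control cells it went the other way, from 24.5 and 13.6 CPM to 2.01 and 5.07 CPM, after 4.17 and 4.84 CPM at day 0. MIR93, of the cluster on chromosome 7 inside MCM7, went from 4.70 and 3.38 CPM to 44.3 and 19.2 CPM, and MIR191, on chromosome 3, from 3.86 and 5.54 CPM to 41.5 and 19.8 CPM. The 2 day 14 libraries thus differed from each other more than 2-fold in each of these 3, and both lay above both day 3 libraries. MIR126 (4.03 and 4.73 CPM to 30.5 and 10.7 CPM), MIR193B (8.73 and 8.24 CPM to 30.8 and 26.1 CPM), MIR425 (3.52 and 2.703 CPM to 11.3 and 7.94 CPM), MIR26A2 (0.504 and 1.22 CPM to 4.82 and 3.79 CPM) and MIR320A (18.8 and 24.3 CPM to 75.4 and 70.8 CPM) rose as well. MIR17HG, the host of the cluster of oncogenic microRNAs that lies within it, went from 233.7 and 358 CPM to 1290 and 694 CPM, and its counts may be those of the hairpins inside it. MIR615 fell, by 1.40 on the log2 scale, from 52.7 and 24.1 CPM to 12.3 and 16.7 CPM. Its call was lost without replicate 1 of day 3 (-0.74) and without either replicate of day 14.

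Summed over the 75 genes, microRNA counts came to 610.0 and 519.7 CPM at day 3 and to 993 and 754 CPM at day 14 with sgDDX3, and to 655 and 579 CPM and then 549 and 480.5 CPM with sgGal4. The day 0 sums with sgDDX3 were 603 and 476 CPM, so those of day 3 were near them and those of day 14 above. Without replicate 1 of day 3, 3 microRNA genes rose (MIR16-2, MIR93 and MIR191), and without replicate 1 of day 14, 6 rose. Without replicate 2 of day 14, 14 rose, and without replicate 2 of day 3, 8 rose. In control cells the sums of day 0 were 532 and 447 CPM. Of 113 small nucleolar RNA genes, 7 rose and 3 fell (8.85% called, against 1.82% of all genes), with a median log2 change of 0.16. With sgGal4 0 rose and 5 fell (median 0.02), and 5 passed for the difference between the guides. SNORD12B, which guides methylation of ribosomal RNA, went from 36.4 and 35.8 CPM to 148 and 145 CPM, and its call held in every alternative. Which fragment lengths were selected in each library is not given in the sources used here.

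**Figure D4:**
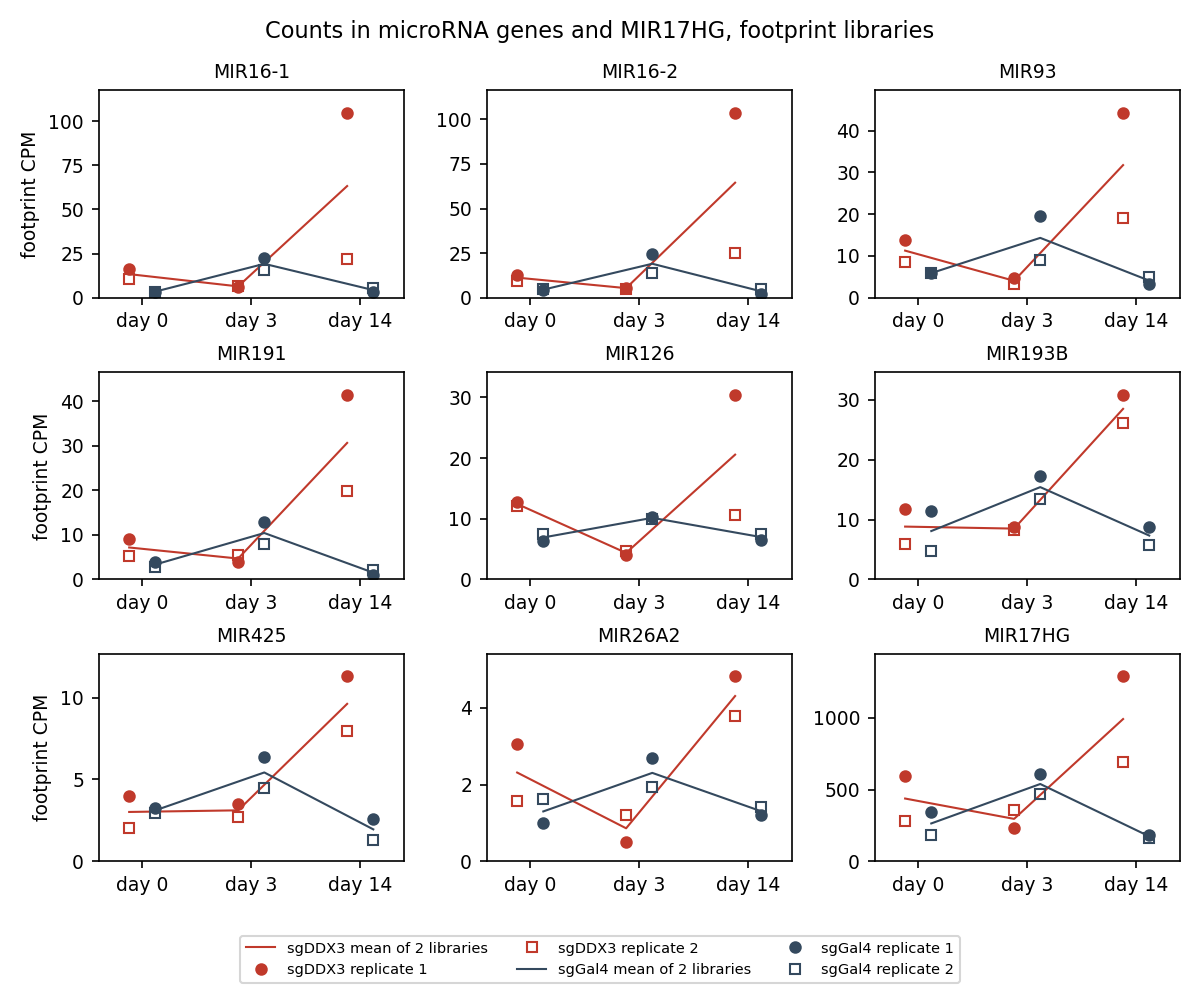
Footprint library CPM (y axes, from 0 and of a different range in each panel) of 8 microRNA genes and the host MIR17HG by day (x axes), 1 point per library, for sgDDX3 and sgGal4 cells, with lines through the means. In the panel of MIR16-2 the sgDDX3 points go from 5.71 and 5.00 CPM up to 104 and 25.2 CPM while the sgGal4 points go from 24.5 and 13.6 CPM down to 2.01 and 5.07 CPM.

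When the changes of the 2 kinds of cells were tested against each other, 25 genes passed, all with the higher change in sgDDX3 cells (0.126%). At an unadjusted p under 0.05 there were 1394, and DESeq2 called 75 higher and 7 lower. Of the 25, 4 were protein-coding, 8 were microRNA genes, 5 were small nucleolar RNA genes and 7 were pseudogenes, most of them copies of the U2 and 7SL RNAs. The differences on the log2 scale were 6.08 for MIR16-2, 5.50 for MIR191, 5.49 for MIR16-1 and 4.85 for MIR93. Higher did not always mean a rise in sgDDX3 cells. The U2 copies had log2 changes from -0.24 to 0.87 in sgDDX3 cells and from -2.63 to -1.49 in control cells. Among protein-coding genes, DDX3X (1.43) and ANKRD34C (2.41), named after its value was seen, passed when any of the 8 libraries was left out. ANKRD34C had a log2 change of 0.63 in sgDDX3 cells and of -1.78 in control cells, so most of its difference lay in the control cells. SUPT6H passed with 1.35 (adjusted p = 0.0478, edgeR), a call lost without replicate 1 of sgDDX3 day 3 (1.15) or day 14 (1.36), and without each sgGal4 library (1.25 to 1.501). NT5DC2, a nucleotidase-like gene also named afterwards, stood at 24.3 and 25.0 CPM at day 3 and at 46.3 and 40.4 CPM at day 14 (difference 0.90), a call lost without 5 of the 8 libraries (0.78 to 0.91). MIR191, MIR93, MIR320A and SNORD12B kept their calls without any of the 8. The call of MIR16-2 was lost without replicate 1 of sgGal4 day 14 (5.58), and that of MIR16-1 without either sgGal4 library of day 14 (5.20 and 5.91). Leaving out 1 library at a time, the difference ranged from 4.72 to 6.88 for MIR16-2, from 3.95 to 6.22 for MIR16-1, from 4.87 to 6.24 for MIR191 and from 4.13 to 5.33 for MIR93. The lowest value of each came without replicate 1 of sgDDX3 day 14, and the highest without replicate 2 of sgDDX3 day 14 for MIR16-1 and MIR93 and without replicate 2 of sgGal4 day 14 for MIR16-2 and MIR191.

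The cytosolic RNA of the same cells gives the part of these changes that lay in mRNA level. In RNA 568 of 18287 genes tested rose (3.11%) and 452 fell (2.47%), 5.58% in either direction. Of the 252 genes with risen footprints 213 were tested in RNA, where 193 had a positive change and 131 rose, with a median log2 change of 0.46 against 0.78 for the footprints of the same 213. Of the 63 fallen genes tested in RNA, 31 had a negative change, 7 fell and 10 rose, and the median was 0.00. Over 9596 genes with at least 10 CPM, the 2 changes had a Pearson r of 0.38 and a Spearman rho of 0.42, as a description across genes. Of the replication genes 20 of 43 rose in RNA and 0 fell, among them MCM2 (1.47) and RRM2 (0.61). E2F1 (0.20) and CDT1 (0.08) did not pass in RNA. Ribosomal protein mRNAs fell in 18 of 47 cases of the large subunit and in 6 of 32 of the small subunit, while none of their footprints passed. For footprints relative to RNA 0 of 47 and 0 of 32 passed (median log2 changes 0.11 and 0.04).

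Footprints relative to RNA, the measure usually read as translational efficiency, changed for 78 of 14853 genes (0.525%), 44 higher (0.296%) and 34 lower (0.229%). Most of the 34 were not listed as protein-coding, and many had no symbol. Most of those without a symbol had values from -1.13 to -1.29, near that of the U2 gene RNU2-1 (-1.33). Whether they are copies of 1 small RNA was not tested. EIF4EBP2 gained 1.03 (adjusted p = 3.06e-04, edgeR), with RNA that fell by 0.23 on the log2 scale. ODC1 gained 0.79 (adjusted p = 0.00228, edgeR), with an RNA change of -0.08 that did not pass. SUPT6H gained 1.07 on top of an RNA rise of 0.86, and SHANK3, a synaptic scaffold, gained 1.94. The calls of these 4 held when any of the 8 sgDDX3 libraries of the 2 assays and days was left out. DHX9 gained 1.10, a call lost without the footprint library of replicate 1 of day 14 (0.97), and PABPC1 gained 0.74, a call lost without that of replicate 1 of day 3 (0.60). EIF5B gained 1.05, lost without 5 of the 8 libraries (0.73 to 1.06). SNORD12B gained 2.58 and C1orf56 gained 1.58, and these were lost without 2 and without 5 of the 8. For a small nucleolar RNA the ratio need not measure translation. Among those lower were TSPOAP1 (-1.97), PLXNA2 (-1.64) and ZNF512B (-1.5), and the call of each was lost without at least 1 library. That of PLXNA2 held for only 2 of the 8 libraries left out. RNA changed by 1.30 for TSPOAP1 and by 1.25 for PLXNA2, with footprint changes of -0.68 and -0.39. For ZNF512B, RNA changed by 0.21 and footprints by -1.30. Without the footprint library of replicate 1 of day 3 the values of TSPOAP1, PLXNA2 and ZNF512B were -1.33, -1.11 and -0.90. C11orf96 and CFAP119 passed too, but their RNA lay under 0.5 CPM in both libraries of day 3, so the size of their drops could not be measured. The call of TSPOAP1 was lost without the RNA library of replicate 1 of day 3 (-1.60), and that of ZNF512B without that library (-1.35) or the footprint library of replicate 1 of day 14 (-1.24). ZNF512B footprints went from 444 and 216 CPM to 109 and 159 CPM. RNU2-1, a gene of the U2 spliceosomal RNA, was lower by 1.33 whichever library was left out, with footprint library counts of 2237 and 1653 CPM at day 3 and 1262 and 1167 CPM at day 14. These fell by 0.68 on the log2 scale, a call lost without replicate 1 of day 3 and without either replicate of day 14, and in control cells by 0.74 (adjusted p = 0.0276, edgeR).

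**Figure D5:**
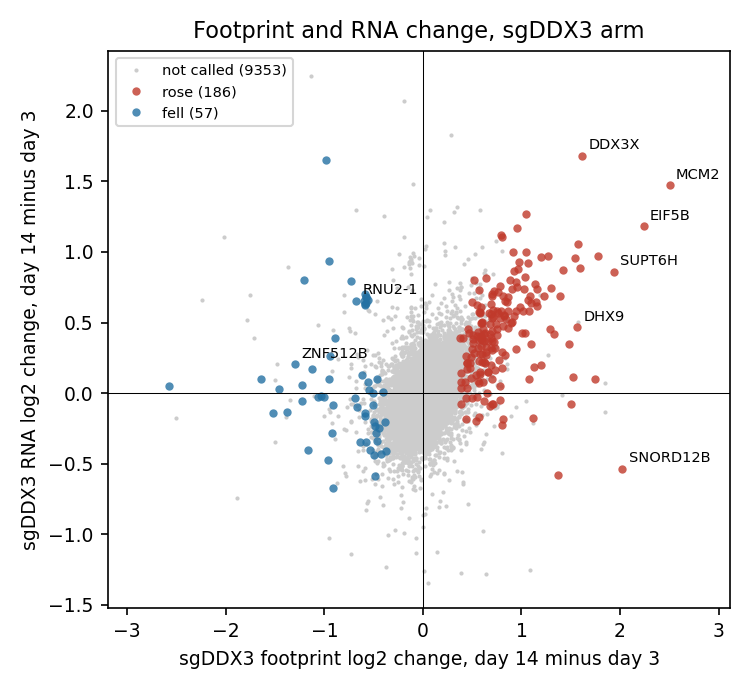
Log2 footprint change (x axis) and log2 RNA change (y axis) from day 3 to day 14 in sgDDX3 cells, 1 point for each of 9596 genes with at least 10 CPM, with the 186 of them whose footprints rose and the 57 whose footprints fell in colour. DDX3X lies at 1.62 on the x axis and 1.68 on the y axis, SUPT6H at 1.93 and 0.86, and the 57 that fell lie on both sides of 0 on the y axis.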

How the data were processed

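The authors deposited raw read counts per gene, 1 table per assay, for 12 footprint and 12 cytosolic RNA libraries of K562 cells. Per the labels' protocols, footprints came from cycloheximide lysates digested with RNase I and passed over size-exclusion columns, and RNA from Triton lysates, with rRNA depletion and strand-marking libraries. The submitters' processing notes name GRCh38 and, with no order, STAR 2.7.5a, Bowtie2 2.4.1, cutadapt 3.4 and DESeq2. Not given in the sources used here are the counter, annotation, strand setting and handling of reads with several alignments, so genes that overlap or have near-identical copies are uncertain.

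Each table had 58037 genes. The 45 pseudoautosomal copies listed on the Y chromosome were left out, and 57992 genes were used, 41445 of them with a symbol. Of these, 1246 had a symbol shared by several gene IDs and were kept under their ID. R 4.3.3 with edgeR 4.0.16 and limma 3.58.1 was used, with TMM scaling within the assay, filterByExpr at a minimum count of 10, and the quasi-likelihood F-test on all 12 libraries of an assay, so that all groups shared 1 estimate of the spread. Footprints relative to RNA were tested as an interaction in 1 model of both assays. The common coefficient of variation was 9.99% in footprints, 6.13% in RNA and 7.08% in the joint model. Genes passed at a Benjamini-Hochberg adjusted p of 0.05. DESeq2 1.42.0 was the alternative tool. The scripts were tested on simulated data. Python 3.11.15, pandas 2.3.3 and matplotlib 3.10.9 were used for tables and figures.

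Named genes were DDX3X, the 15 highest and 15 lowest by log2 change among genes that passed with a symbol, a mean of 10 CPM or more and no overlap of groups, the up to 4 smallest p-values of each list, and the 5 highest and 5 lowest of those that passed for the difference between the guides and for footprints relative to RNA. The libraries, gene lists and rules were chosen with earlier results of these data known. Others are said to be named after their values were seen. Y-linked genes are not named, and a few other genes are not reported here.

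Replicate numbers were checked for pairing. The deviations of same-numbered libraries correlated from -0.47 to 0.43 over 15 pairs of footprint groups, above 0.1 in 7, so the numbers were not taken to pair the samples. Alternatives were other scalings, fits, filters, sets of libraries, a replicate block and leaving out each library.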

Additional observations from a re-analysis of the deposited data

Results flagged for a closer look

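The change from day 3 to day 14 differed between sgDDX3 and sgGal4 cells for 25 genes by the interaction test of edgeR, all with the higher change in sgDDX3 cells. Of the genes named, the log2 differences were 6.08 for MIR16-2, 5.50 for MIR191, 5.49 for MIR16-1, 4.85 for MIR93, 3.51 for MIR320A, 3.38 for MIR17HG and 3.13 for MIR425. They were 4.70 for SNORA74D, 2.04 for SNORD12B, 1.43 for DDX3X and 1.35 for SUPT6H. For MIR320A the change was 1.75 in sgDDX3 cells and -1.76 in control cells, and both passed (adjusted p = 0.0114 and 0.0215, edgeR). SNORA74D had 43.0 and 35.1 CPM at day 3 and 205 and 73.9 CPM at day 14 in sgDDX3 cells, a change that did not pass by itself (adjusted p = 0.0647, edgeR). Its difference was lost without replicate 1 (4.93) or replicate 2 (4.53) of sgGal4 day 14. That of MIR17HG was lost without sgDDX3 day 14 replicate 1 (2.88) or sgGal4 day 14 replicate 1 (3.50) or 2 (3.30). That of MIR425 was lost without sgDDX3 day 14 replicate 1 (2.86), sgGal4 day 14 replicate 2 (2.73) or sgGal4 day 3 replicate 1 (2.85).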

How the results depend on the processing

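Of the 360 genes called from day 3 to day 14 in sgDDX3 footprints, the count was 598 with a replicate block crossed between the days, an alternative added after seeing the data because same-numbered libraries deviated in opposite directions (-0.47). It was 100 when a fold above 1.2 was required, 7 with only the 4 libraries and 70 with only the 6 sgDDX3 footprint libraries in the fit. Without the filter on low counts it was 1147 (657 higher and 490 lower, 57.3% higher against 70%). The replicate block by number gave 375 genes, 142 in control cells, 59 for the difference between the guides, 1562 and 1638 for day 3 and day 14 against day 0, 845 in RNA and 65 for footprints relative to RNA. In control cells DESeq2 called 194 and no filter gave 723, against 112. For the difference, DESeq2 called 82, DESeq2 size factors gave 39 and no filter 478, against 25. Footprints relative to RNA without the filter gave 185, against 78. Leaving out 1 library at a time, the counts ranged from 96 to 807 for day 14 against day 3, from 20 to 103 in control cells, from 17 to 147 for the difference, from 344 to 1342 and from 248 to 741 for day 3 and day 14 against day 0, from 140 to 2300 in RNA and from 40 to 238 relative to RNA. Of 84 single genes followed that passed, none changed sign. By DESeq2 73 passed, with its size factors 84, with the block 77, at a fold above 1.2 36, and without single libraries 27 to 69. Of 83 of them with a value there, 24 passed with only the 6 sgDDX3 footprint libraries and 5 with only the 4 libraries in the fit. With 2 libraries a group and 3 counts allowed by a count of 0, changes of genes under about 0.5 CPM could not be measured.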
